A study of Saccharomyces cerevisiae with 12 samples.

Results

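The genes described here are the 31 genes of ergosterol synthesis and sterol regulation in Saccharomyces cerevisiae, of 6228 genes on the array. They were taken by name as the enzymes of the mevalonate and ergosterol pathway, their electron donors, the sterol acyltransferases, a lipid transfer protein and the sterol regulators, and were found on the arrays by their open reading frame names. All 31 were represented by 1 probe each, and all 31 were well above background on all 12 arrays.

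Ergosterol is the main sterol of the yeast plasma membrane and takes the place that cholesterol has in animal cells. Acetyl-CoA is built into mevalonate and isoprenoid units, these are joined to farnesyl pyrophosphate and squalene, and squalene is oxidised, closed to lanosterol and trimmed to ergosterol in the endoplasmic reticulum. Many of the late steps need oxygen and either heme (the cytochromes P450 encoded by ERG11 and ERG5, and the cytochrome b5 encoded by CYB5) or a pair of iron atoms (the oxidases encoded by ERG25 and ERG3). In yeast, high-affinity iron uptake runs through a copper-dependent oxidase, which is the known link from copper transport to iron.

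The study asked how over-expression of a truncated copper transporter alters the element content and the transcripts of yeast, and the arrays hold its transcripts. The 12 samples were 3 independent cultures in each of 4 groups. WT_Con was the laboratory strain BY4741 with an empty vector, and WT_CTR1 was BY4741 over-expressing full-length CTR1, the gene of the high-affinity copper transporter of the plasma membrane. Dctr1_Con was BY4741 with CTR1 deleted and an empty vector, and Dctr1_CTR1D300, called CTR1D300 below, was the deletion strain over-expressing the truncated CTR1 delta-300. All groups were grown in synthetic medium lacking leucine, brought to an OD600 of 0.6 and then given 0.02 mM CuCl2 for 7 h, shaken at 180 rpm and 30 °C. Each construct was present in 1 strain only, so construct and strain differ together between WT_CTR1 and CTR1D300. The promoter and the number of transformants are not stated in the sources used here.

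Each value is a log2 signal relative to the 75th percentile of its array, so 0 is that percentile, and values of different probes are not set against each other. A difference is given as a log2 fold change and its SE (n = 3 arrays in each group), and a gene was called changed at an adjusted p under 0.05 (limma, Benjamini-Hochberg over 6127 genes). Arrays of a group correlated across genes at r of 0.992 to 0.998. The CTR1 probe averaged -2.50 on the WT_Con arrays and 4.62 on the WT_CTR1 arrays. No deletion-strain array read it well above background, so the array gives no reading of the truncated construct. The position of the probe relative to the truncation was not analysed here, and expression of that construct was not tested. The group is described as over-expressing by its label alone. LEU2 averaged between 4.35 and 5.86 in the other groups but -0.79 ± 0.65 (SD, n = 3) in CTR1D300, although the medium lacked leucine. The lower LEU2 signal goes with the construct in every comparison that includes CTR1D300. Its bearing on the sterol genes was not tested. On every slide the empty-vector arrays lay in column 1 and the over-expressing arrays in column 2, so a construct comparison within a strain is also a comparison of columns. Each probe has 2 spots, which were averaged. Comparisons of CTR1D300 with WT_CTR1 and of Dctr1_Con with WT_Con lie within a column. For replicates 2 and 3 they lie between slides, slide 2 for wild type and slide 3 for the deletion strain. In those replicates strain and slide cannot be told apart. A shift common to a column cancels in the difference between the construct effects. These are bulk cultures, so a change per cell and a change in the mix of cells cannot be told apart.

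With truncated CTR1 in the deletion strain, sterol genes changed in both directions. Of the 31 genes 6 rose and 11 fell between Dctr1_Con and CTR1D300. The 17 called genes were 54.8% of the 31, against 54.5% of all genes tested, and called rises and falls made up 24.0% and 30.6% of all genes. The sterol genes were therefore called about as often as the average gene, and what follows describes which of them moved. The largest rises were those of SUT1, ERG8, ARE1 and PDR16, and the largest falls those of ERG20 and ARE2. All 17 had the same sign in each of the 3 same-numbered pairs, which lie on 1 slide each. They were picked by the test on these same arrays, so the equal signs are no separate support. With each of the 2 spots alone 15 of the 17 were called (48.4% of the 31, against 38.2% of all genes). The median difference was -0.09 over the 31 genes and -0.05 over all genes.

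**Figure D1:**
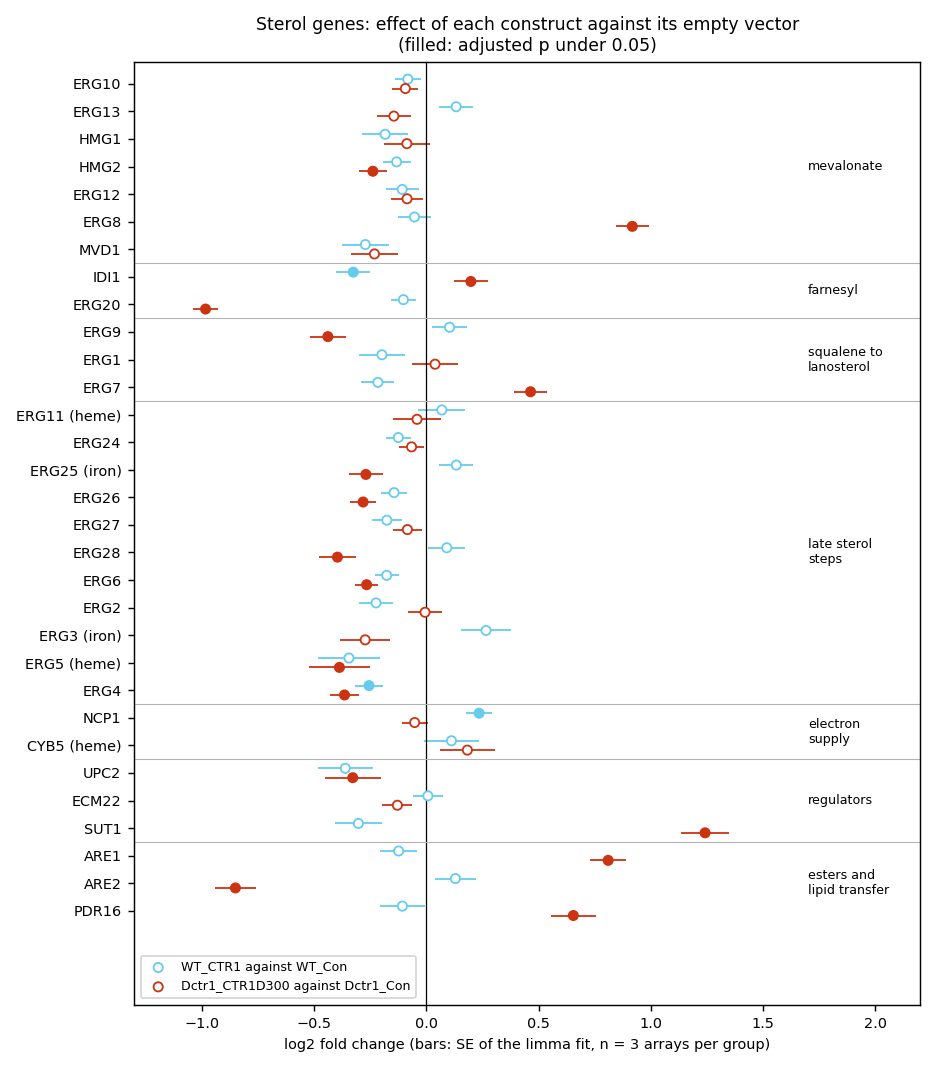
Log2 fold change (horizontal axis, ± SE, n = 3 arrays per group) of each of the 31 sterol genes, grouped by role, for CTR1 in wild type and CTR1D300 in the deletion strain; filled symbols passed adjusted p under 0.05. With CTR1D300 the genes run from -0.98 (ERG20) to 1.24 (SUT1), whereas with CTR1 all 31 lie between -0.36 and 0.27.

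In the mevalonate segment, ERG8 rose and HMG2 fell, and the other 5 genes were not called. ERG8 encodes phosphomevalonate kinase. Arrays of replicates 1, 2 and 3, in that order here and below, read 0.83, 0.68 and 0.74 on the Dctr1_Con arrays and 1.81, 1.57 and 1.63 on the CTR1D300 arrays. The wild-type arrays read 0.73, 0.75 and 0.74 on the WT_Con arrays and 0.78, 0.62 and 0.67 on the WT_CTR1 arrays. All 3 CTR1D300 arrays therefore stood above the other 9, which lay close together, and the difference from Dctr1_Con was 0.92 ± 0.07 (SE; adjusted p = 3.25e-06). Its spots gave 1.49 and 0.35, both called, so the direction was shared and the size was not.

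HMG1 and HMG2 encode the isozymes of HMG-CoA reductase, the main control point of the pathway, and are known for opposite use: Hmg1 in aerobic cells with heme, Hmg2 when oxygen is short. HMG2 read -0.02, -0.04 and -0.01 on the Dctr1_Con arrays and -0.38, -0.22 and -0.18 on the CTR1D300 arrays, with no overlap and a difference of -0.24 ± 0.06 (SE; adjusted p = 0.00841). The HMG2 call was lost without slide 1 (adjusted p = 0.0797). HMG1 read -0.15, -0.11 and 0.10 on the Dctr1_Con arrays and -0.32, -0.19 and 0.09 on the CTR1D300 arrays, where the groups overlapped and the difference was -0.09 ± 0.10 (SE; adjusted p = 0.493). In wild type HMG1 read -0.03, -0.05 and -0.16 on the WT_Con arrays and -0.24, -0.27 and -0.28 on the WT_CTR1 arrays, and HMG2 read -0.12, 0.00 and -0.07 on the WT_Con arrays and -0.20, -0.18 and -0.20 on the WT_CTR1 arrays. Both were lower on all WT_CTR1 arrays than on any WT_Con array, with differences of -0.18 and -0.13, and neither was called (adjusted p = 0.283 and 0.206). The other mevalonate genes, ERG10 (acetoacetyl-CoA thiolase), ERG13 (HMG-CoA synthase), ERG12 (mevalonate kinase) and MVD1 (mevalonate pyrophosphate decarboxylase), differed by -0.09, -0.14, -0.09 and -0.23 and were not called. The ERG12 average combines spots at -0.29 and 0.12, of which the first was called alone. With the replicate number as a block, ERG13 (adjusted p = 0.0425) and MVD1 (adjusted p = 0.0194) were called lower as well, where 66.6% of all genes were called.

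At the step where isoprenoid units are joined, ERG20 fell by the largest amount of the 31 genes. Its product, farnesyl pyrophosphate synthase, makes the precursor shared by sterols, dolichols, ubiquinone, heme A and prenylated proteins. ERG20 read 3.65, 3.52 and 3.58 on the Dctr1_Con arrays and 2.59, 2.58 and 2.63 on the CTR1D300 arrays. In wild type it read 3.60, 3.51 and 3.55 on the WT_Con arrays and 3.47, 3.40 and 3.48 on the WT_CTR1 arrays. The 3 CTR1D300 arrays lay close together and below the other 9, and the difference was -0.98 ± 0.06 (SE; adjusted p = 3.07e-07). IDI1, whose product interconverts the isoprenoid units, ran from 1.06 to 1.28 on the Dctr1_Con arrays and from 1.34 to 1.37 on the CTR1D300 arrays and was called higher, at 0.20 ± 0.08 (SE; adjusted p = 0.0442). The IDI1 call was not shared by the spots (0.33 and 0.07), and it was lost when any CTR1D300 array, replicate 1 or 2 of Dctr1_Con or slide 1 was left out.

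Of the 3 genes from squalene to lanosterol, ERG9 fell, ERG7 rose and ERG1 was not called. ERG9 encodes squalene synthase, the first step committed to sterols. ERG9 read 1.46, 1.27 and 1.31 on the Dctr1_Con arrays and 0.95, 0.83 and 0.95 on the CTR1D300 arrays. In wild type it read 1.47, 1.27 and 1.32 on the WT_Con arrays and 1.55, 1.36 and 1.47 on the WT_CTR1 arrays, where the groups overlapped. CTR1D300 was lower than every other array, and the difference from Dctr1_Con was -0.44 ± 0.08 (SE; adjusted p = 0.00094). ERG7 encodes lanosterol synthase, which closes the ring system. ERG7 read 1.63, 1.63 and 1.62 on the Dctr1_Con arrays and 2.17, 2.04 and 2.07 on the CTR1D300 arrays. It read 1.75, 1.83 and 1.76 on the WT_Con arrays and 1.56, 1.70 and 1.42 on the WT_CTR1 arrays. The CTR1D300 arrays were the highest of the 12 and differed from Dctr1_Con by 0.46 ± 0.07 (SE; adjusted p = 0.000366). ERG1, the oxygen-dependent flavoprotein squalene epoxidase between these steps, differed by 0.04 ± 0.10 (SE; adjusted p = 0.766).

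All 11 genes of the late steps, from lanosterol to ergosterol, lay below 0 in this comparison, but 10 did with quantile normalisation, median centring or another background correction (not ERG2) and 9 in the authors' matrix (not ERG2 and ERG11). Over all genes tested, 54.7% lay below 0. Of the 11 genes 6 fell, where 30.6% of all genes were called lower. The falls were small beside those of ERG20 and ARE2, from -0.27 for ERG6 to -0.40 for ERG28. ERG28 encodes a membrane protein that tethers the demethylation enzymes to each other. ERG28 read -1.62, -1.68 and -1.70 on the Dctr1_Con arrays and -1.98, -1.99 and -2.22 on the CTR1D300 arrays. It read -1.60, -1.69 and -1.59 on the WT_Con arrays and -1.61, -1.59 and -1.40 on the WT_CTR1 arrays in wild type. The CTR1D300 arrays were the lowest of the 12, and the difference was -0.40 ± 0.08 (SE; adjusted p = 0.00206).

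ERG25 and ERG26 encode members of that demethylation complex, the iron-dependent methyl oxidase and the decarboxylating dehydrogenase. ERG25 read 2.02, 2.13 and 2.19 on the Dctr1_Con arrays and 1.79, 1.78 and 1.96 on the CTR1D300 arrays, and ERG26 read 0.92, 0.87 and 0.89 on the Dctr1_Con arrays and 0.62, 0.67 and 0.55 on the CTR1D300 arrays. Neither gene's groups overlapped, and the differences were -0.27 ± 0.08 (SE; adjusted p = 0.0117) for ERG25 and -0.28 ± 0.06 (SE; adjusted p = 0.00188) for ERG26. In wild type ERG25 read 1.98, 2.16 and 2.10 on the WT_Con arrays and 2.19, 2.29 and 2.17 on the WT_CTR1 arrays, and ERG26 read 1.00, 0.89 and 0.92 on the WT_Con arrays and 0.77, 0.78 and 0.82 on the WT_CTR1 arrays. With CTR1 the ERG25 arrays were thus higher and the ERG26 arrays lower than those of the empty vector, and neither passed the test (0.13, adjusted p = 0.287, and -0.14, adjusted p = 0.131). ERG27, the keto reductase of the complex, differed by -0.08 ± 0.07 (SE; adjusted p = 0.298) with CTR1D300.

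ERG6, the sterol methyltransferase that adds the methyl group found in ergosterol and not in cholesterol, read 0.81, 0.89 and 0.82 on the Dctr1_Con arrays and 0.54, 0.61 and 0.57 on the CTR1D300 arrays. In wild type it read 0.93, 0.91 and 0.98 on the WT_Con arrays and 0.76, 0.79 and 0.74 on the WT_CTR1 arrays. Over-expressing arrays were below empty-vector arrays in both strains, with a difference of -0.27 ± 0.05 (SE; adjusted p = 0.00168) with CTR1D300 and one of -0.18 ± 0.05 (SE; adjusted p = 0.0514), not called, with CTR1. ERG4 encodes the reductase of the last step. ERG4 read 2.59, 2.63 and 2.66 on the Dctr1_Con arrays and 2.17, 2.32 and 2.31 on the CTR1D300 arrays. It read 2.59, 2.59 and 2.73 on the WT_Con arrays and 2.37, 2.38 and 2.40 on the WT_CTR1 arrays. ERG4 fell by the test in both strains, with differences of -0.36 ± 0.06 (SE; adjusted p = 0.000667) for CTR1D300 and -0.25 ± 0.06 (SE; adjusted p = 0.022) for CTR1. With CTR1 its spots gave -0.39 and -0.12, the second not called, and the call was lost under 9 of 20 other settings. ERG2 (sterol isomerase) and ERG24 (sterol reductase) differed with CTR1D300 by -0.01 and -0.07 and were not called.

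Of the 5 genes whose products carry heme or iron, 4 lay below 0 with CTR1D300 and 1 above, where 54.7% of all genes lay below 0. With the replicate number as a block 3 of the 5 were called lower and 0 higher, where 66.6% of all genes were called. With CTR1D300, ERG25 and ERG5 fell, and ERG3, ERG11 and CYB5 were not called. ERG5, the P450 desaturase, read -1.12, -0.86 and -0.79 on the Dctr1_Con arrays and -1.59, -1.24 and -1.10 on the CTR1D300 arrays. It read -1.08, -0.96 and -0.83 on the WT_Con arrays and -1.45, -1.30 and -1.15 on the WT_CTR1 arrays in wild type. The spread within groups was about as wide as the difference, and the deletion-strain groups overlapped, but each pair differed in the same direction and the difference was -0.39 ± 0.14 (SE; adjusted p = 0.0328). The ERG5 call was lost without replicate 2 or 3 of Dctr1_Con, without replicate 1 or 2 of CTR1D300, with median centring and with another background correction. ERG3, the iron-dependent desaturase, differed by -0.27 ± 0.11 (SE; adjusted p = 0.0561) and was called with the replicate block (adjusted p = 0.00381), but its spots gave -0.48 and -0.06. ERG11, the P450 lanosterol demethylase that azole drugs inhibit, differed by -0.04 ± 0.10 (SE; adjusted p = 0.761). CYB5 differed by 0.18 ± 0.12 (SE; adjusted p = 0.226), and NCP1, the flavoprotein reductase that feeds electrons to the P450 enzymes, by -0.05 ± 0.06 (SE; adjusted p = 0.467). This NCP1 average combines spots at -0.36 and 0.25, each called alone in its own direction, so it gives no settled value for NCP1 here. Calls covered 40.0% of the heme or iron genes and 57.7% of the other 26, on 5 genes in the first case.

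Among the 3 regulators, SUT1 rose more than any other of the 31 genes, UPC2 was called lower and ECM22 was not called. SUT1 encodes a zinc cluster transcription factor that promotes sterol uptake, a process of oxygen-poor cells. SUT1 read -4.33, -4.22 and -4.18 on the Dctr1_Con arrays and -3.09, -3.03 and -2.88 on the CTR1D300 arrays. In wild type it read -4.28, -3.97 and -4.11 on the WT_Con arrays and -4.57, -4.22 and -4.48 on the WT_CTR1 arrays. All 3 CTR1D300 arrays lay above the other 9, and SUT1 was the only one of the 31 genes past a 2-fold difference, at 1.24 ± 0.11 (SE; adjusted p = 4.76e-06). UPC2 and ECM22 encode related factors that sense sterols and activate the ERG genes when sterols are low. UPC2 read -4.14, -3.96 and -3.96 on the Dctr1_Con arrays and -4.36, -4.31 and -4.37 on the CTR1D300 arrays. ECM22 read -2.47, -2.48 and -2.46 on the Dctr1_Con arrays and -2.50, -2.63 and -2.67 on the CTR1D300 arrays. Neither gene's groups overlapped, with differences of -0.33 ± 0.12 (SE; adjusted p = 0.0435) for UPC2 and -0.13 ± 0.07 (SE; adjusted p = 0.124) for ECM22. In wild type UPC2 read -3.73, -3.39 and -3.46 on the WT_Con arrays and -4.07, -3.60 and -3.99 on the WT_CTR1 arrays, and ECM22 read -2.39, -2.40 and -2.37 on the WT_Con arrays and -2.31, -2.50 and -2.34 on the WT_CTR1 arrays, with overlap in both genes. The spots of UPC2 gave -0.15 and -0.51, of which the first was not called. The UPC2 call was also lost when any 1 CTR1D300 array or replicate 2 or 3 of Dctr1_Con was left out, and under quantile normalisation, median centring or another background correction.

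The sterol acyltransferase paralogs moved in opposite directions. Are1 and Are2 store sterols as steryl esters, Are2 as the main isozyme of aerobic cells and Are1 with a larger share when heme or oxygen is short. ARE1 read -0.56, -0.70 and -0.61 on the Dctr1_Con arrays and 0.34, 0.03 and 0.18 on the CTR1D300 arrays. ARE2 read -3.18, -3.03 and -2.98 on the Dctr1_Con arrays and -4.07, -3.87 and -3.79 on the CTR1D300 arrays. ARE1 rose by 0.81 ± 0.08 (SE; adjusted p = 1.47e-05) and ARE2 changed by -0.85 ± 0.09 (SE; adjusted p = 2.41e-05), each with no overlap and with both spots. In wild type ARE1 read -0.61, -0.52 and -0.60 on the WT_Con arrays and -0.70, -0.63 and -0.77 on the WT_CTR1 arrays, and ARE2 read -3.26, -3.08 and -3.10 on the WT_Con arrays and -3.12, -2.96 and -2.97 on the WT_CTR1 arrays. CTR1 went with differences of -0.12 and 0.13, neither called. PDR16 encodes a phosphatidylinositol transfer protein whose loss alters sterol composition and azole tolerance. PDR16 read 0.07, 0.12 and 0.17 on the Dctr1_Con arrays and 0.80, 0.79 and 0.73 on the CTR1D300 arrays. In wild type it read -0.11, 0.22 and -0.05 on the WT_Con arrays and -0.19, 0.10 and -0.17 on the WT_CTR1 arrays. CTR1D300 arrays were the highest of the 12, and PDR16 rose by 0.66 ± 0.10 (SE; adjusted p = 0.000267) over Dctr1_Con.

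**Figure D2:**
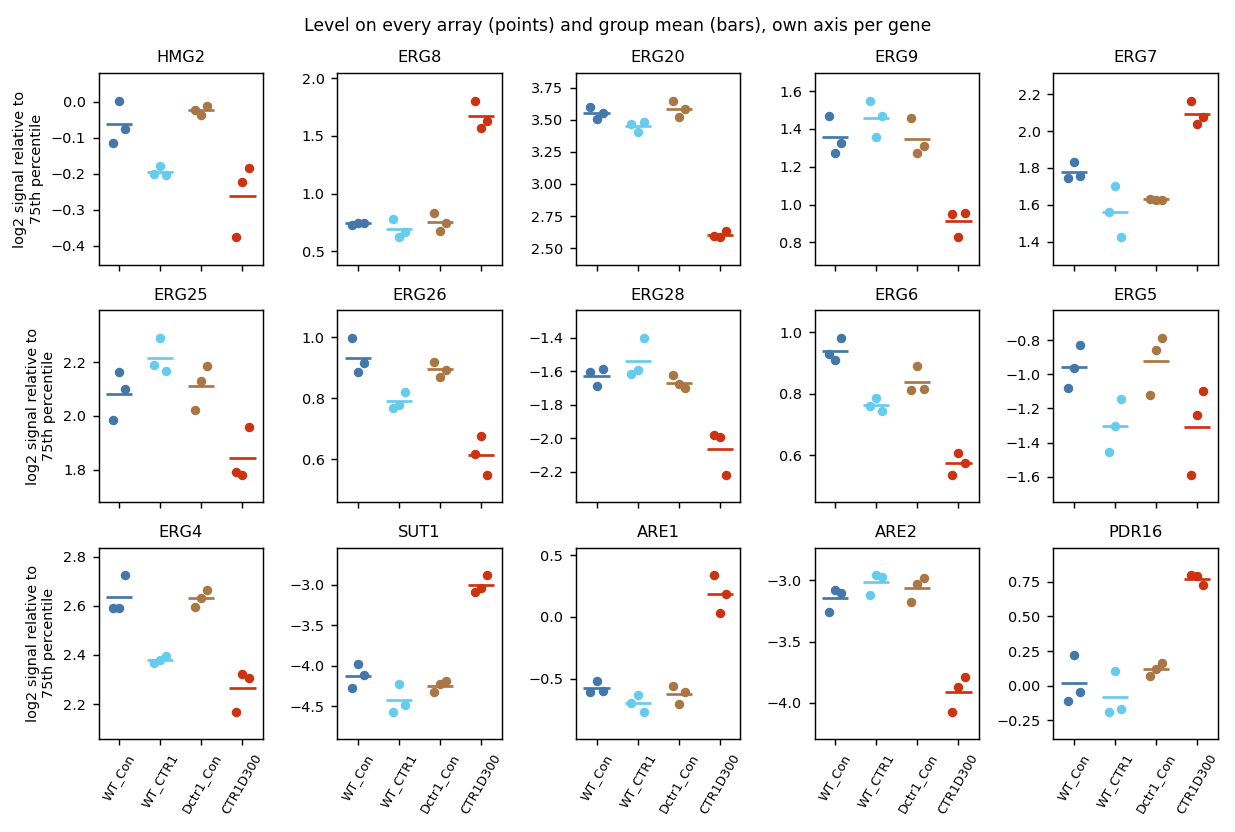
Log2 signal relative to the array's 75th percentile (vertical axis) on each of the 12 arrays for the 15 genes called with each spot alone; points are arrays, bars are group means, and colours are the 4 groups. The CTR1D300 points of SUT1, ERG8, ARE1 and PDR16 lie above, and those of ERG20, ERG9 and ARE2 below, all other points of the same gene.

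With over-expression of full-length CTR1 in wild type, 3 sterol genes were called in the fit without a block and 13 with the replicate number as a block, against 13.3% and 27.4% of all genes. In the fit without a block NCP1 rose, at 0.24 ± 0.06 (SE; adjusted p = 0.0209), and IDI1 and ERG4 fell, IDI1 with a difference of -0.32 ± 0.08 (SE; adjusted p = 0.0168). These 3 were 9.68% of the 31 (7.25% of all genes were called higher and 6.02% lower), and none of them was called with each spot alone, against 6.02% of all genes. NCP1 ran from 0.86 to 1.02 on the WT_Con arrays and from 1.14 to 1.18 on the WT_CTR1 arrays, but its rise was carried by 1 spot (0.56, against -0.09 for the other). IDI1 ran from 1.08 to 1.16 and from 0.71 to 0.93 on the same groups, with spots at -0.22 and -0.43. Of the 31 genes 21 lay below 0, with a median of -0.12 against 0.02 over all genes, of which 46.2% lay below 0. The split of 1 rise and 2 falls became 0 and 4 with median centring and 1 and 1 with quantile normalisation.

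The number of calls in this comparison depended on the fit. With the slide as a block 10 sterol genes were called, and no count over all genes is given for that fit. With the replicate number as a block 919 of all 6127 genes tested were called higher and 758 lower. Of the sterol genes the replicate block called 2 higher and 11 lower. The 13 comprised ERG3 and NCP1 among the rises and MVD1, IDI1, ERG1, ERG7, ERG27, ERG6, ERG2, ERG5, ERG4, UPC2 and SUT1 among the falls, with the largest block fall that of UPC2 (-0.36, adjusted p = 0.0153). None was called without slide 1, without replicate 3 of WT_Con or without replicate 1 or 3 of WT_CTR1, and 7 were called without replicate 2 of WT_CTR1. In addition ERG4 was not called with quantile normalisation, another background correction or the authors' matrix, NCP1 not with median centring or without replicate 1 of WT_Con, and IDI1 not without replicate 2 of WT_Con. The spots of 4 genes (ERG8, ERG3, NCP1 and UPC2) differed by more than 0.5 here, against 13.5% of all genes. For ERG8 they gave 0.53 and -0.64, so that its average of -0.05 combines opposite readings. The heme and iron genes differed by 0.07 (ERG11), -0.34 (ERG5), 0.11 (CYB5), 0.27 (ERG3) and 0.13 (ERG25), and none was called in the fit without a block. ERG3 and ERG5 were called with the replicate block (adjusted p = 0.0128 and 0.00265), ERG5 also with the slide as a block and ERG3 also with the higher-numbered spot (spots at -0.01 and 0.54).

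**Figure D3:**
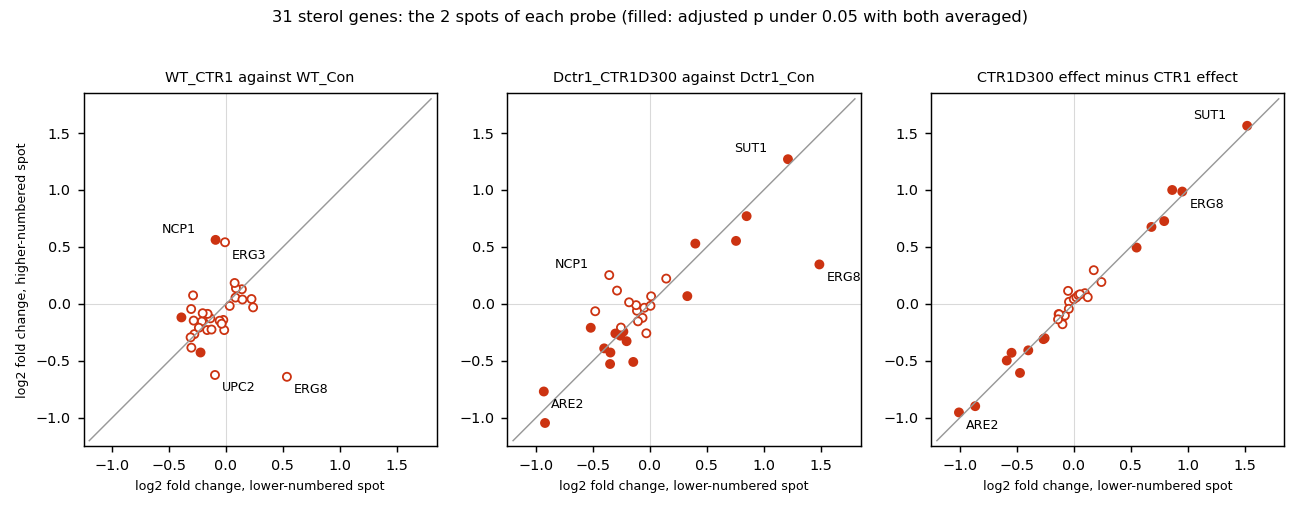
Log2 fold change from the lower-numbered spot (horizontal axis) and the higher-numbered spot (vertical axis) of each of the 31 probes in 3 comparisons; the line marks equal values and filled points were called with both spots averaged. With CTR1 in wild type ERG8 lies at 0.53 and -0.64, with CTR1D300 at 1.49 and 0.35, and in the difference between the construct effects at 0.95 and 0.99, on the line.

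Deletion of CTR1 alone changed none of the 31 genes by the test (limma), against 0.49% of all genes called. At an unadjusted p under 0.05 there were 3 (ERG1, CYB5 and UPC2), against 8.57% of all genes, and differences ran from -0.50 to 0.10. UPC2 was lower on all Dctr1_Con arrays than on any WT_Con array, at -0.50 ± 0.12 (SE; adjusted p = 0.153). ERG1 ran from 2.19 to 2.47 in WT_Con and from 1.98 to 2.23 in Dctr1_Con, with overlap, and differed by -0.26 ± 0.10 (SE; adjusted p = 0.457). With the replicate number as a block these 2 genes were called lower (ERG1 adjusted p = 0.0273, UPC2 adjusted p = 0.027), against 1.62% of all genes called. The heme and iron genes differed by -0.04 (ERG11), 0.04 (ERG5), -0.27 (CYB5), -0.04 (ERG3) and 0.03 (ERG25), none of them called.

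Between the over-expressing groups, which share a slide column, 6 of the 31 genes were higher in CTR1D300 than in WT_CTR1 and 12 were lower. These 18 were 58.1% of the 31, against 62.9% of all genes (24.5% higher and 38.4% lower), and 17 of them were called with each spot alone, against 56.4% of all genes. The higher genes were SUT1 (1.42 ± 0.11), ERG8 (0.98 ± 0.07), ARE1 (0.89 ± 0.08), PDR16 (0.86 ± 0.10), IDI1 (0.56 ± 0.08) and ERG7 (0.53 ± 0.07). The lower genes were led by ARE2 (-0.90 ± 0.09), ERG20 (-0.85 ± 0.06), ERG3 (-0.58 ± 0.11), ERG9 (-0.55 ± 0.08) and ERG28 (-0.53 ± 0.08), followed by UPC2 (-0.46 ± 0.12), ERG25 (-0.37 ± 0.08) and ERG13 (-0.36 ± 0.07). Between the empty-vector groups UPC2 differed by a similar amount, -0.50 ± 0.12, not called. ECM22 (-0.22), NCP1 (-0.21), ERG6 (-0.19) and ERG26 (-0.18) were closer to the median of all genes, which was -0.11 with this scaling, as was that of the 31 genes, and -0.00 with quantile normalisation. With median centring the split was 8 higher and 8 lower, and under quantile normalisation ECM22, ERG26, NCP1 and UPC2 were not called. ERG26 lost its call without slide 1 or replicate 3 of WT_CTR1 or of CTR1D300, and ECM22 without replicate 1 or 3 of WT_CTR1 or replicate 3 of CTR1D300. ERG6 and NCP1 lost theirs without slide 1, and UPC2, ECM22 and ERG26 were not called with the slide as a fixed block.

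Of the 5 heme or iron genes, ERG3 and ERG25 were lower here, and ERG11 (-0.15), CYB5 (-0.20) and ERG5 (-0.01) were not called. The ERG3 arrays ran from 1.65 to 2.01 in WT_CTR1 and from 1.08 to 1.30 in CTR1D300, against 1.44 to 1.63 in WT_Con and 1.33 to 1.56 in Dctr1_Con. The over-expressing groups thus stood on either side of both empty-vector groups.

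The difference between the construct effects, which is the change with CTR1D300 in the deletion strain minus the change with CTR1 in wild type, was called for 13 of the 31 genes (41.9%, against 46.4% of all genes, 19.7% higher and 26.7% lower). All 13 were called with each spot alone, against 38.1% of all genes. SUT1 (1.54 ± 0.15), ERG8 (0.97 ± 0.11), ARE1 (0.93 ± 0.11), PDR16 (0.76 ± 0.14), ERG7 (0.68 ± 0.10) and IDI1 (0.52 ± 0.11) were raised more, or lowered less, with CTR1D300 than with CTR1. ARE2 (-0.98 ± 0.13), ERG20 (-0.88 ± 0.08), ERG9 (-0.54 ± 0.11), ERG3 (-0.54 ± 0.16), ERG28 (-0.49 ± 0.12), ERG25 (-0.40 ± 0.11) and NCP1 (-0.29 ± 0.08) moved the other way. IDI1 was called in opposite directions in the separate comparisons, -0.32 with CTR1 and 0.20 with CTR1D300. Neither of these IDI1 calls held with each spot alone or without slide 1. Of the 17 genes called with CTR1D300, 11 were also called in this difference and in the comparison of the over-expressing groups.

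The remaining 6 of those 17, HMG2, ERG26, ERG6, ERG5, ERG4 and UPC2, had differences between the construct effects of -0.11, -0.14, -0.09, -0.04, -0.11 and 0.03, none called. ERG5 and ERG4 lay at -0.34 and -0.25 with CTR1 and at -0.39 and -0.36 with CTR1D300. Between CTR1D300 and Dctr1_Con the construct and the slide column cannot be told apart for any of the 17. A shift common to a column cancels only in the difference, in which these 6 were not called. For all 17 the construct and the lower LEU2 signal of CTR1D300 cannot be told apart. Calls on ERG25 and ERG3 in the difference were lost without slide 1, as was that on NCP1, which was also lost with median centring. With the replicate block ERG13 (-0.28, adjusted p = 0.0126), ERG1 (0.24, adjusted p = 0.0111) and ERG2 (0.22, adjusted p = 0.0478) were called too, against 59.9% of all genes. Of the 31 genes 10 were called in none of the 5 comparisons in the fit without a block: ERG10, ERG12, MVD1 and HMG1 of the mevalonate segment, ERG1, the late genes ERG11, ERG24, ERG27 and ERG2, and CYB5. Of these, MVD1, ERG1, ERG27 and ERG2 were called in 1 or more comparisons with the replicate block.

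A further 46 genes around the pathway, listed by role with earlier results of these data known, were all measured. With CTR1D300 6 of them rose and 17 fell, against 24.0% and 30.6% of all genes, and 2 and 11 did so with each spot alone, against 38.2% of all genes in either direction. HES1, of the oxysterol-binding protein family, changed by -1.29 ± 0.10, and PRY1 and PRY2, whose products bind and export sterols, changed by -0.88 ± 0.16 and -0.96 ± 0.13. Of the 3 steryl ester hydrolases, TGL1 fell (-0.62 ± 0.11), YEH2 rose (0.45 ± 0.07), though not with each spot alone, and YEH1 was not called (0.11 ± 0.10). OSH7 changed by -0.44 ± 0.08 and SAY1, a sterol deacetylase, by -0.38 ± 0.07. OLE1, the fatty acid desaturase, changed by -1.09 ± 0.23, and HAP1, the heme-responsive activator that carries a Ty1 insertion in strains of this background, by -0.49 ± 0.08. Of the genes for degradation of the Hmg2 reductase, HRD3 (-0.35 ± 0.11) and UBC7 (-0.32 ± 0.08) fell with both spots. HRD1 (-0.39 ± 0.12) was called lower as well, but not with each spot alone.

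Downstream of ERG20, the prenyltransferase genes differed among themselves. CDC43 (0.50 ± 0.08), of protein prenylation, and RER2 (0.39 ± 0.11), of dolichol synthesis, rose with both spots, and SRT1 (-0.95 ± 0.12), the paralog of RER2, fell. NUS1 (-0.34 ± 0.09), COQ1 (-0.30 ± 0.12) and COX10 (-0.36 ± 0.12) were called lower and RAM1 (0.24 ± 0.08) higher, but not with each spot alone. Sterol uptake transporter AUS1 rose (0.33 ± 0.11), but not with each spot alone, and PDR11 was not called (0.19 ± 0.14). The difference between the construct effects was called for 21 of the 46 genes, 8 higher and 13 lower, against 19.7% and 26.7% of all genes, with HES1 at -1.51 ± 0.14, PRY2 at -1.41 ± 0.18, SRT1 at -1.17 ± 0.17 and AUS1 at 0.63 ± 0.15. YEH1 and YEH2 were called higher in it, at 0.39 ± 0.14 and 0.28 ± 0.10. With CTR1 in wild type only PRY2 was called among the 46, against 13.3% of all genes, at 0.46 ± 0.13, so it rose with CTR1 and fell with CTR1D300. HRD1 (-0.75 ± 0.17) and UBC7 (-0.46 ± 0.12) were called lower in the difference. OLE1 (-0.78 ± 0.33, adjusted p = 0.0753) and HRD3 (-0.25 ± 0.16, adjusted p = 0.206) were not called in it. Between CTR1D300 and Dctr1_Con the construct and the slide column cannot be told apart for any of the 46. The deletion alone gave no call among them.

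**Figure D4:**
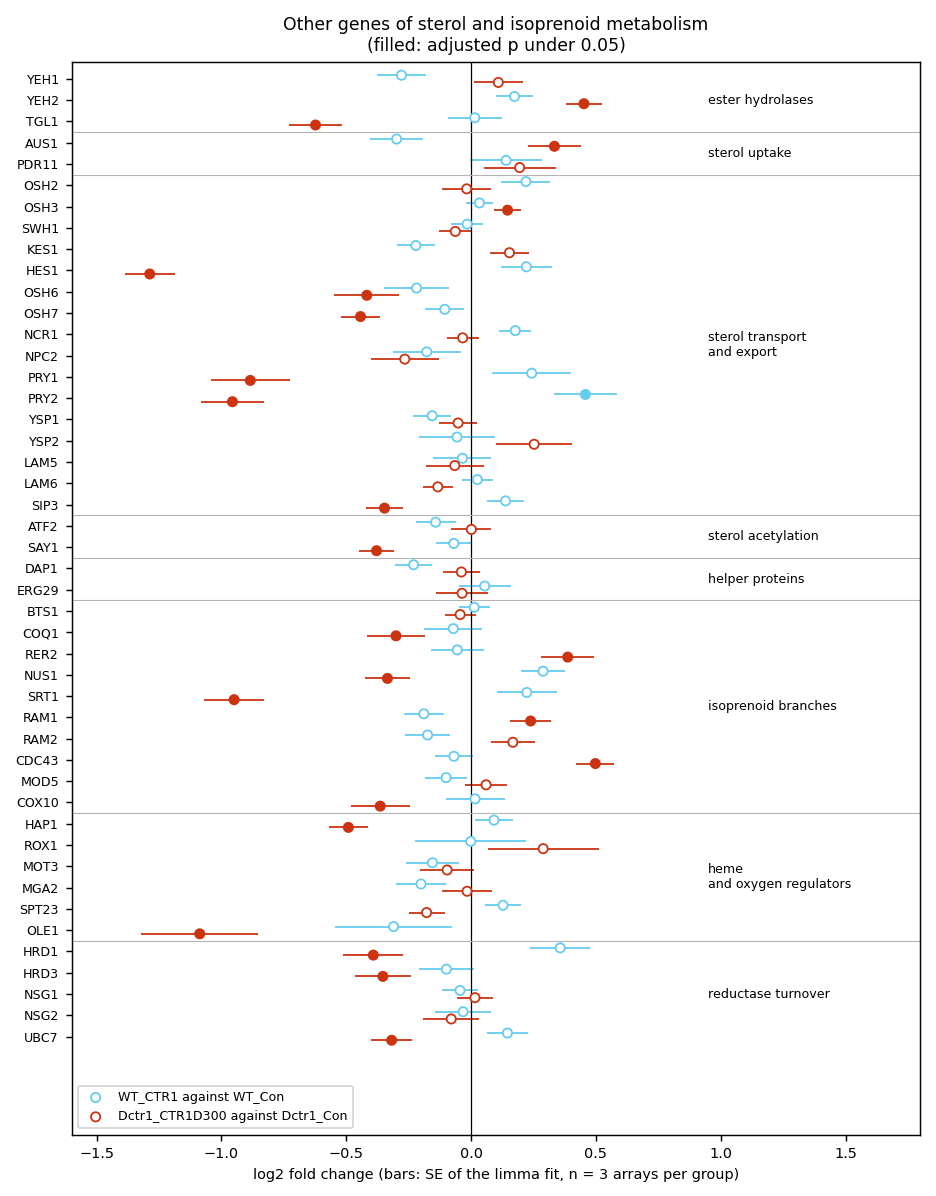
Log2 fold change (horizontal axis, ± SE, n = 3 arrays per group) of the 46 further genes with CTR1 in wild type and with CTR1D300 in the deletion strain, grouped by role; filled symbols passed adjusted p under 0.05. PRY2 is the gene with filled symbols on both sides of 0, at 0.46 with CTR1 and -0.96 with CTR1D300.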

How the data were processed

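Transcripts were measured on 12 one-colour Agilent arrays (Cy3), with 0.4 µg of RNA labelled per sample. Per the file headers, spots were read out with Agilent Feature Extraction 10.7.1.1, and array design 016322 was annotated on sacCer1. The deposited processed signal is an intensity per spot after background subtraction and detrending, per the file headers. The deposited median signal and background of a spot are raw intensity values, and its flags are 0 or 1. The series matrix holds 5202 log2 values per array as deposited, 5191 of them gene probes, with a shared median of 11.7. It correlated with the scanner signal at r of 0.99962 or more, and how the authors chose its probes is not stated in the sources used here.

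The log2 processed signal was averaged over the 2 spots of a probe, leaving out outlier spots, and centred on each array's 75th percentile. A probe entered the fit if 3 or more arrays read it well above background (6155 did, 101 did not), and the brightest probe stood for a gene, which left 6127 genes. Of the 6228 genes on the array 5740 matched a RefSeq table (R64) by name, and the others kept the name printed on the array. No coordinates or sequences are given. Group means were fitted to all 12 arrays in R 4.3.3, limma 3.58.1, with no block (8 residual degrees of freedom), and p values were adjusted by Benjamini-Hochberg over all genes. The fit was tested on simulated data with independent noise on each array. That test does not cover the replicate pairing, the slides or the columns. Median processed signal per array ran from 1792 to 2999, 95.9% to 98.6% of spots were well above background and no spot was saturated. The number of arrays limits the precision.

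All 31 genes are named. Values on every array are given for genes called with both spots averaged and with each alone in either construct comparison, for UPC2, ECM22 and SUT1, and for the paralogs of HMG1 and ARE1. The members and lists were chosen with earlier results of these data known. The labels give 3 independent experiments. Deviations from the group mean of arrays with the same number correlated across genes. For the wild-type construct comparison r was 0.75, 0.692 and 0.342, for the deletion-strain comparison 0.679, 0.699 and 0.394, and for the empty vectors 0.554, 0.295 and 0.134, so these numbers were taken to pair samples. Between the over-expressing groups r was 0.381, 0.407 and -0.03, and the numbers were not taken to pair them. The main fit had no block and so did not use the pairing of the other comparisons. The fit with the replicate number as a block did use it. That fit called 13 sterol genes with CTR1 where the main fit called 3, and 2 for the deletion where the main fit called 0. Of all genes it called 27.4% and 1.62% in these comparisons, where the main fit called 13.3% and 0.49%. A gene not called in the main fit is therefore not shown to be unchanged. Replicate 1 of all groups lay on slide 1, scanned on day 1, and the other arrays on slide 2 (wild type) and slide 3 (deletion strain), scanned on day 2. Alternatives were other normalisations and background correction, the series matrix, other filters, each spot alone, replicate and slide blocks, fits to the compared groups alone, and leaving out slide 1 or each array.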

Additional observations from a re-analysis of the deposited data

Results flagged for a closer look

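The difference between the effect of CTR1D300 in the deletion strain and that of CTR1 in wild type passed the interaction test of limma in 13 of the 31 genes (41.9%, against 46.4% of all genes). Construct and strain change together in this difference. It was positive for SUT1 (1.54, adjusted p = 1.87e-05), ERG8 (0.97, adjusted p = 3.87e-05), ARE1 (0.93, adjusted p = 9.23e-05), PDR16 (0.76, adjusted p = 0.00136), ERG7 (0.68, adjusted p = 0.000433) and IDI1 (0.52, adjusted p = 0.0026).

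It was negative for ARE2 (-0.98, adjusted p = 0.000152), ERG20 (-0.88, adjusted p = 1.15e-05), ERG9 (-0.54, adjusted p = 0.00293), ERG3 (-0.54, adjusted p = 0.0165), ERG28 (-0.49, adjusted p = 0.00597), ERG25 (-0.40, adjusted p = 0.0108) and NCP1 (-0.29, adjusted p = 0.0151). In ERG3 the separate effects were 0.27 with CTR1 and -0.27 with CTR1D300, neither of them called. In each of the 13 genes the 3 same-numbered sets of arrays gave the same sign, but the 13 were picked on these same arrays. The calls on ERG25 (adjusted p = 0.0572), ERG3 (adjusted p = 0.0533) and NCP1 (adjusted p = 0.116) were lost without slide 1.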

How the results depend on the processing

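With CTR1D300 against Dctr1_Con 17 of the 31 genes were called, 14 to 17 when 1 array was left out and 15 to 20 under the other settings. Between the over-expressing groups the count was 18, 16 to 19 and 14 to 18, and for the difference between the construct effects 13, 13 to 14 and 10 to 16. Calls held under every setting run for 13 of 17, 13 of 18 and 10 of 13 genes. With CTR1 against WT_Con the count of 3 became 13 with the replicate block, 10 with the slide as a fixed or a random block, 8 with the lower-numbered spot and 6 with the higher-numbered spot. It was 0 without slide 1 and 0 with only the compared groups, and 0 to 7 when 1 array was left out. Over all genes tested the count with CTR1 moved too, from 813 to 1677 with the replicate block and to 613 with another background correction. Counts over all genes with the slide as a block, with 1 spot or with arrays left out are not given here. For the deletion alone the replicate block gave 2 genes against 0, and leaving out any 1 array gave 0. ERG8 with CTR1 turned to 0.53 with the lower-numbered spot (adjusted p = 0.000549), NCP1 with CTR1 to -0.091 with that spot, and NCP1 with CTR1D300 to 0.25 with the higher-numbered spot. The cause of these changes was not tested. UPC2 is not among the series matrix probes used here. The replicate block moved the counts with CTR1D300 to 20, between the over-expressing groups to 18 and for the difference to 16. Over all genes tested it moved these counts from 3341 to 4078, from 3851 to 4399 and from 2845 to 3673. For the deletion alone the count over all genes went from 30 to 99.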
